A study of Mus musculus with 10 samples.

Results

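Twist1, Twist2, Prrx1, Snai1, Snai2, Zeb1, Zeb2, Runx1, Runx2 and Tead1 are 10 genes of transcription factors that give fibroblasts and other mesenchymal cells their identity. They were chosen by name, with earlier results of these data known. A ZFP266 DamID-seq peak was counted for a gene when it overlapped the gene or lay within 50 kb of it on GRCm38. By this rule 35 of the 15119 peaks of the data set belonged to the list, and 9 of the 10 genes had at least 1. Of these peaks, 17 were inside a gene of the list, 6 upstream of one and 12 downstream. Tead1, Zeb2 and Snai1 together held 20 of the 35 peaks, while Snai2 had none in its window.

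Fibroblasts that are driven towards pluripotency lose their mesenchymal program and take on epithelial traits, and the factors on this list are known for the opposite direction. TWIST, SNAI and ZEB proteins bind E-box sequences and repress epithelial genes such as the E-cadherin gene, PRRX1 marks the mesenchyme of limb and face, and RUNX and TEAD proteins bind enhancers of mesenchymal cells together with partner proteins. AP-1, the dimer of FOS and JUN proteins, is active at many enhancers of fibroblasts. ZFP266 is a zinc finger protein of the KRAB class, a class whose members often bind transposable elements, and B1 SINEs are short interspersed elements of the mouse genome that derive from the 7SL RNA gene.

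The samples were mouse embryonic fibroblasts (MEFs) of strain 129, nucleofected with the plasmid PGK-mO-Dam-Zfp266 (5 samples) or with PGK-mO-Dam, which makes Dam alone (5 samples). In both plasmids the PGK promoter drives mOrange as the first reading frame, and the Dam protein is made only when translation starts again behind it, which keeps its level low. Cells were sorted for the plasmid after 48 h, and 32 ng of their genomic DNA was used per sample. Dam, a bacterial methyltransferase, marks the adenine of GATC near the place where the fusion protein sits, and Dam alone marks accessible chromatin and gives the background. No treatment or genotype other than the plasmid differed between the groups, and every cell kept its own Zfp266 gene. The fusion protein was therefore measured in addition to the ZFP266 of the cell.

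The 10 samples were pooled by the authors into 1 list of peaks, each with a signal value for Dam-ZFP266 over Dam alone and a q-value. This list holds no value of a single sample, no read depth and no spread between replicates, so no difference was tested here. Shares of peaks and genes stand beside the same share over all peaks or over all 21000 protein-coding genes, and each interval is a Wilson 95% interval that covers counting error only. The method reports where the protein was bound and not how much a gene was expressed, so expression of fibroblast markers could not be checked in these data. All peak ends lay in a GATC sequence (0 ends did not), so a peak is a run of whole fragments between neighbouring GATC sites and its edges are no finer than these sites.

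A peak in the gene or within 50 kb was common. It was found for 49.7% of all protein-coding genes, and for 9 of the 10 genes of the list. Length matters for such a count, since the median gene of the list spanned 101.2 kb and the median protein-coding gene 16.7 kb. Among genes under 50 kb the share with a peak was 45.3%, and 3 of the 4 list genes of that length (Twist1, Twist2, Snai1 and Snai2) had one. Among genes of 50 kb or more it was 65.1%, and all 6 list genes of that length had one (Prrx1, Zeb1, Zeb2, Runx1, Runx2 and Tead1). These counts rest on few genes in each length class, and their difference from the background was not tested.

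For peaks inside the gene itself, 9.12% of the protein-coding genes under 50 kb had one, and 1 of the 4 short list genes did (Twist2). Of the protein-coding genes of 50 kb or more 45.0% had one, and 5 of the 6 long list genes did, Prrx1 being the exception. The median number of peaks was 3.5 peaks per window for the list and 0 for all genes, 5 against 1 for the long genes and 1.5 against 0 for the short ones.

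Set against window length, the windows of the list held 1.58 peaks per 100 kb over 2213.8 kb, while the windows of all protein-coding genes held 0.739 and the whole genome 0.555. The ratio to all protein-coding genes was 2.14, and it was 2.09 for the long genes and 2.24 for the short ones. Peaks covered 3.81% of the windows of the list and 1.15% of the genome. In 8 of the 10 genes the density was above that of over 50% of the protein-coding genes in the same length class. By construction, at most 50% of the genes in a class can meet this. For genes under 50 kb it only restates that a peak was present, since 45.3% of them had any. Snai1 was highest, with 4.78 peaks per 100 kb (98.3% of the short genes had fewer), followed by Tead1 with 2.75 (94.1% of the long genes had fewer) and Zeb2 with 2.57 (93.1%). Runx1 (1.54), Twist2 (1.36), Runx2 (1.19) and Twist1 (0.979) lay between, and Prrx1 (0.593), Zeb1 (0.353) and Snai2 (0) were lowest. With 1 pooled list, the order of genes that differ by 1 or 2 peaks has no error attached.

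**Figure D1:**
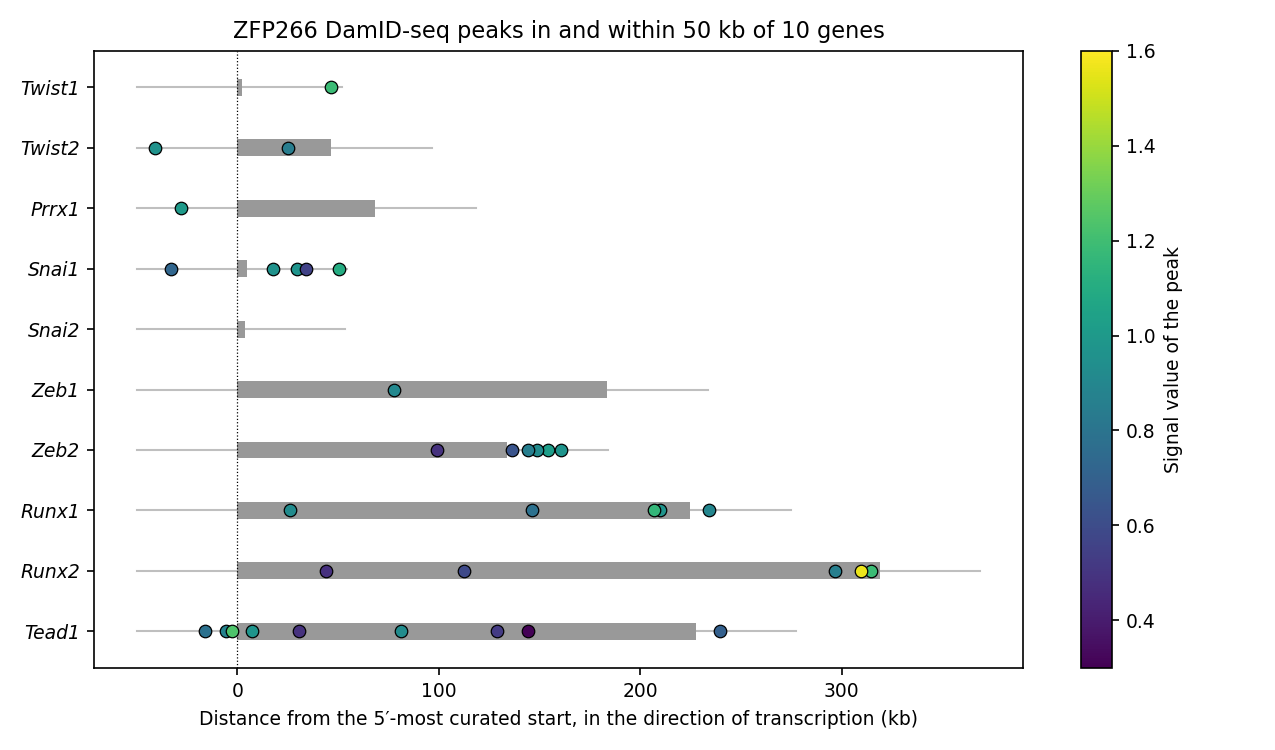
Positions of the 35 peaks around the 10 genes: the x axis is the distance from the 5′-most curated start in the direction of transcription (kb), grey bars are genes, thin lines are the 50 kb on each side, and each point is the middle of a peak coloured by its signal value. Peaks of Zeb2 and Snai1 gather downstream of the gene, those of Tead1 around and behind its start, those of Runx2 inside the gene, and Snai2 has none.

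None of the 35 peaks (0) overlapped a promoter, meaning the 1000 bp before and the 100 bp after a curated start, against 5.82% of all peaks. An exon of a curated transcript was overlapped by 1 (2.9%), against 11.4% of all peaks. Within 10 kb of the start of any protein-coding gene there were 5 (14.3%), against 28.0% of all peaks. For 3 of these it was the start of the list gene itself, the closest at 2145 bp, upstream of Tead1. Of the 35 peaks, 27 were at genes of 50 kb or more, and these shares of all peaks were not matched for gene length. The differences were not tested. For 32 of the 35 the list gene was also the nearest protein-coding gene. Their median length was 1844 bp (712 to 8342 bp), against 1777 bp over all peaks, and 15 of them (42.9%) were a single fragment, against 55.7% of all peaks.

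The median signal value was close to that of the whole data set, while smaller shares had a signal value above 1 or a q under 0.05. The signal value of the 35 peaks had a median of 0.905 (0.307 to 1.56), against 0.898 over all peaks (0.227 to 8.66). The q-value was under 0.05 for 16 of them (45.7%), against 52.5% of all peaks, and under 0.01 for 5 (14.3%), against 13.0% of all peaks. A signal value above 1 was found for 8 (22.9%), against 33.3% of all peaks. The 5 peaks with q under 0.01 lay in Runx1 (2), in Runx2 (2) and upstream of Tead1 (1).

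**Figure D2:**
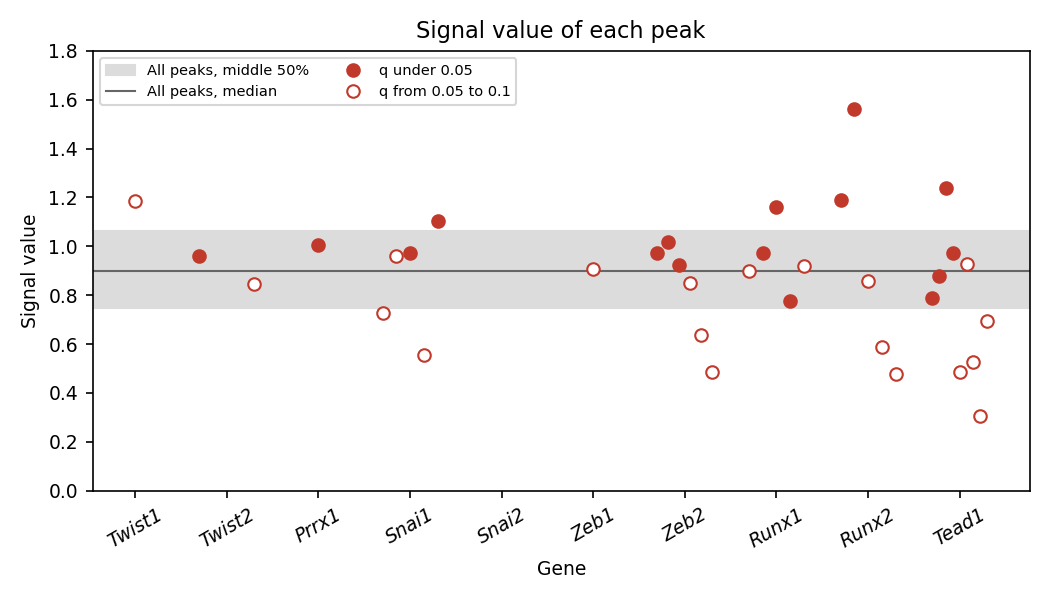
Signal value of each peak by gene (y axis, signal value of Dam-ZFP266 over Dam alone, whose scale is not stated), one point per peak in genome order, filled where q is under 0.05; the line and the grey band are the median and the range from lower to upper quartile of all 15119 peaks. Most points lie in or near the band (0.749 to 1.06), the highest is the Runx2 peak at 1.56, and the lowest is a Tead1 peak at 0.307.

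An AP-1 motif, searched as TGACTCA and TGAGTCA, which are each other's reverse complement, was present in 16 of the 35 peaks (45.7%, interval 30.5% to 61.8%) and in 44.2% of all peaks. A B1 SINE was present in 12 (34.3%, interval 20.8% to 50.8%) and in 32.9% of all peaks. Both were present in 6 peaks (17.1%) against 14.5% of all peaks, and neither in 13 (37.1%) against 37.3%. All these shares were close to those of the whole list of peaks. Per kb, the peaks of the list held 0.367 AP-1 motifs and the rest of their windows 0.173, and for the genome the values were 0.328 and 0.157. B1 SINEs made up 2.17% of the bases in these peaks and 1.20% of the rest of the windows, against 2.73% and 1.30% in the genome.

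B1 content was also counted by position. Of the 17 peaks inside genes of the list 2 held a B1 SINE (11.8%, interval 3.3% to 34.3%), and of the 18 beside them 10 did (55.6%, interval 33.7% to 75.4%). These intervals overlapped only between 33.7% and 34.3%. Such an overlap does not decide whether the shares differ, and the difference was not tested. The genes contributed unequally, since 9 of the 17 peaks inside were from Runx1 and Runx2, with 0 B1 SINEs, and 4 of the 10 beside were from Snai1. Without Runx1 and Runx2 the shares were 25% inside and 58.8% beside, and without Snai1 they were 11.8% and 46.2%. For peaks in all protein-coding genes and in their 50 kb flanks the shares were 35.6% and 38.8%. The sequence itself held 6.8 of these elements per 100 kb inside the list genes and 13.4 per 100 kb beside them, and without Snai1 the latter was 8.3, near the value inside. Over all protein-coding genes the values were 13.5 and 15.2. An AP-1 motif was present in 8 of 17 peaks inside (47.1%) and in 8 of 18 beside (44.4%). Peaks of 1 gene share its surroundings, so they are not independent of each other.

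The following stretches of GRCm38 carry the AP-1 motifs and B1 SINEs that the counts rest on. The reads came from strain 129, whose own bases at these sites were not looked up. In the first 2, capitals mark the AP-1 motif with 20 bases on each side: a motif in the peak over exon 5 of Zeb2, and the closest pair, separated by 18 bases, in the longest peak of the list in Runx2. The pair and the stretch after it were picked after their values had been seen. That stretch is the place downstream of Zeb2 where an AP-1 motif comes nearest to a B1 SINE, 110 bp behind its end, with both in capitals. The last 3 are B1 SINEs of high identity to the consensus, with capitals for the bases that match it, and they are written in the direction of the element.
Zeb2 AP-1 (chr2:45019223-45019269, plus strand): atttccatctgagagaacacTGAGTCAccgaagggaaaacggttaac
Runx2 AP-1 pair (chr17:44771026-44771097, plus strand): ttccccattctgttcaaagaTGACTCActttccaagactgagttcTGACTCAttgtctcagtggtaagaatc
Zeb2 B1 SINE and AP-1 (chr2:44958051-44958311, plus strand): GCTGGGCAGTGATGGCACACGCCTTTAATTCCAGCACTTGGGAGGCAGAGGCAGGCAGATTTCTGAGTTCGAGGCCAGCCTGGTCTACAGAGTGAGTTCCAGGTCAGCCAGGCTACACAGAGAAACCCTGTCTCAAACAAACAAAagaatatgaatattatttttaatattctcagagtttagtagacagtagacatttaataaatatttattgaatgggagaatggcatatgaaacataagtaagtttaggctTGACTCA
Tead1 B1 SINE (chr7:112676705-112676845, plus strand): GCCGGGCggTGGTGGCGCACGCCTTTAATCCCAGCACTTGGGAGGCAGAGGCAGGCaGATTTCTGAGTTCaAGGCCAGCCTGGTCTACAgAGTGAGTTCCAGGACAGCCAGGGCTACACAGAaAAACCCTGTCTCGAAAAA
Snai1 B1 SINE (chr2:167556228-167556373, minus strand): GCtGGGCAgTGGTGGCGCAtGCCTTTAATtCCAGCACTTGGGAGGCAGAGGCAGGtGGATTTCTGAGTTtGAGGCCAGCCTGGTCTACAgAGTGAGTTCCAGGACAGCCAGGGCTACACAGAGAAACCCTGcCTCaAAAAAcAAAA
Zeb2 B1 SINE (chr2:45017951-45018096, plus strand): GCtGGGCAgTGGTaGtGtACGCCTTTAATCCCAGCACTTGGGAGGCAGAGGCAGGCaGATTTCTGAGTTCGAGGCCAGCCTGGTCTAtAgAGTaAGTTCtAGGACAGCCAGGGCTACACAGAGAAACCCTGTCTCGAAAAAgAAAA

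The peaks held 16 B1 SINEs with 76.2% to 95.7% identity to the consensus, and 9 of them had 90% or more. The same peaks held 31 AP-1 motifs. Of the 35 peaks 7 (20%) held 2 or more, near the 15.6% of all peaks. The most, 5 each, were in the longest peaks, of 8342 bp in Runx2 and of 5969 bp near Snai1. In the 6 peaks that had both, the distance between the closest motif and element was 110 to 1181 bp (median 243 bp), so none of them (0) had the pair within 100 bp.

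Twist1 and Twist2 encode basic helix-loop-helix factors that pair with E proteins, and had 1 and 2 peaks. Twist1, which acts in cranial and limb mesenchyme, is a gene of 2.16 kb at chr12:33957671-33959831. Its 1 peak lay 43480 bp downstream (chr12:34003311-34004857) with a signal value of 1.18, above 86.1% of all peaks, and a q of 0.0931. Hdac9, a histone deacetylase gene, was nearer to this peak. The peak held no AP-1 motif and part of a diverged B1 SINE (78.9% identity). Twist2, which acts in the dermis, spans 46.57 kb at chr1:91801461-91848034. A peak 40262 bp upstream (chr1:91760310-91761199, signal value 0.960, q = 0.0402) and one in its only intron (chr1:91826389-91827100, signal value 0.845, q = 0.0872) were single fragments of 890 bp and 712 bp. Neither held an AP-1 motif or a B1 SINE.

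Prrx1 encodes a paired-related homeobox factor of limb and craniofacial mesenchyme. The gene (68.53 kb, chr1:163245119-163313650, minus strand) held no peak itself. One fragment 26555 bp upstream was a peak (chr1:163340205-163343166) with a signal value of 1.00 and a q of 0.0202. It held 2 AP-1 motifs and the edge of a B1 SINE (91.3% identity) that lay 1181 bp from the nearer of them.

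Snai1 and Snai2 encode zinc finger repressors of epithelial genes and stood at opposite ends of the list. Snai1 spans only 4.62 kb (chr2:167538195-167542814), had no peak inside, and had 5 peaks in its window, which covered 10.6% of it. The first, 32564 bp upstream (chr2:167504676-167505631, signal value 0.725, q = 0.0762), lay inside Rnf114, a ubiquitin ligase gene. The other 4 lay downstream. The peak at 12058 bp (chr2:167554872-167556508) had a signal value of 0.959 and a q of 0.0541. The next pair, 386 bp apart, spanned 8.0 kb from 24303 bp downstream on (chr2:167567117-167575162), with signal values of 0.972 (q = 0.0257) and 0.556 (q = 0.0841). The last, at 45554 bp (chr2:167588368-167589165), had a signal value of 1.10 and a q of 0.0277, and Ube2v1 was the nearer gene.

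The window of Snai1 was rich in B1 SINEs. It held 59 of them, or 56.4 per 100 kb, against 10.3 per 100 kb of genome and 3.88 to 18.02 in the windows of the other list genes that had any. Of its 5 peaks, 4 held at least 1 B1 SINE, with best identities of 89.8% to 93.2%. The element at 89.8% lay only in part inside its peak, the one upstream of the gene. The 5969 bp peak, made of 7 fragments, held 5 AP-1 motifs and 2 B1 SINEs, 134 bp apart at the closest, and the remaining peaks of Snai1 had no AP-1 motif.

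Snai2, known for its role in neural crest cells, spans 3.54 kb (chr16:14705852-14709395). The nearest peak was 117330 bp away. The window held 313 fragments between GATC sites, so sites that Dam could mark were present, along with 13 AP-1 motifs and 0 B1 SINEs.

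Zeb2 and Zeb1 encode zinc finger and homeobox repressors of the E-cadherin gene. Zeb2 (133.93 kb, chr2:44983512-45117442, minus strand) had 6 peaks, of which 5 lay close together downstream of the gene. They started 1599 bp behind its end and spanned 27.0 kb (chr2:44954897-44981913), with gaps of 1673 to 5052 bp. Their distance from the nearest Zeb2 start was 128364 to 151207 bp, and the start of Gtdc1 was nearer to all of them. From the nearest to the farthest, the signal values were 0.637, 0.850, 0.924, 1.02 and 0.971, and the q-values were 0.0980, 0.0518, 0.0330, 0.0195 and 0.0336. The 3 peaks farthest from the gene therefore had q under 0.05 and the 2 nearest did not. The peak next to the gene had neither motif nor element. The other 4 held 1, 2, 1 and 2 AP-1 motifs, and the last 2 also had a B1 SINE (79.4% and 91.8% identity).

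The sixth Zeb2 peak was the only peak of the list over an exon. It covered all 72 bases of exon 5 of 11 (chr2:45017397-45017468) within 5325 bp of 6 fragments (chr2:45015932-45021256). Its signal value was 0.487, above only 2.7% of all peaks, with a q of 0.0856. It held 4 AP-1 motifs and a B1 SINE of 92.5% identity, 166 bp apart at the closest.

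Zeb1, in contrast, had 1 peak in 183.61 kb of gene and 100 kb of flanks. The peak (chr18:5668827-5670450) lay in intron 1 of 7, 77.78 kb into the gene, with a signal value of 0.905 and a q of 0.0709. It held no AP-1 motif and the edge of a B1 SINE (89.2% identity). The density of 0.353 peaks per 100 kb was above that of 41.2% of the long protein-coding genes.

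**Figure D3:**
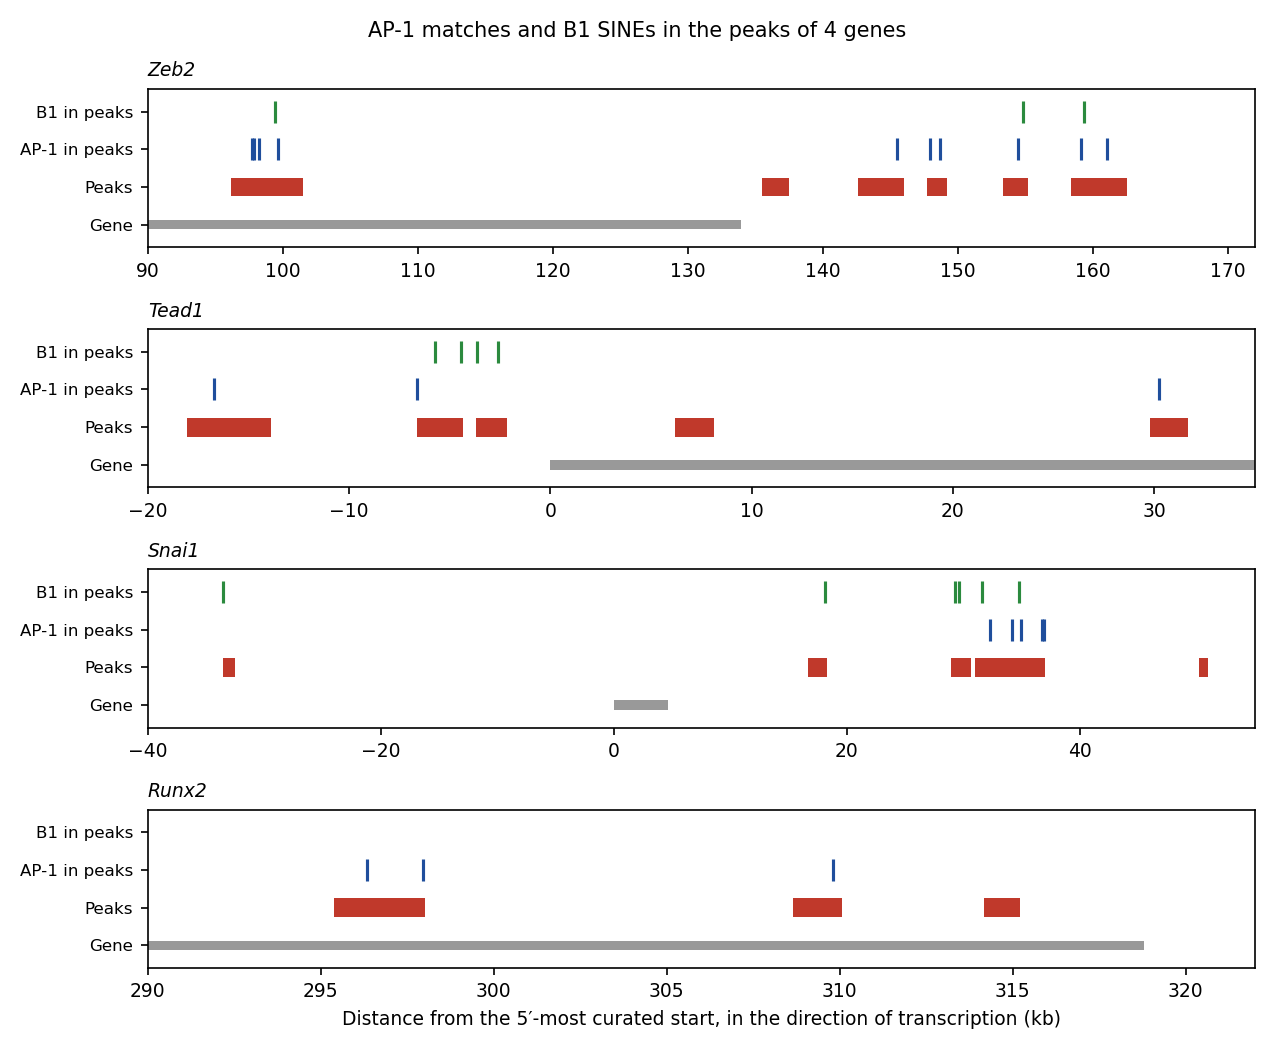
AP-1 motifs (blue) and B1 SINEs (green) in the peaks (red) of Zeb2, Tead1, Snai1 and Runx2, against distance from the 5′-most curated start in the direction of transcription (kb), with the gene in grey; each panel shows a part of the window. Of the 6 Zeb2 peaks 3 hold both, the 4 B1 SINEs of Tead1 lie in 2 peaks upstream of its start, 4 of 5 Snai1 peaks hold a B1 SINE, and 4 of 5 Runx2 peaks hold an AP-1 motif while none holds a B1 SINE.

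Runx1 and Runx2 encode runt-domain factors, known for blood stem cell formation and for osteoblasts, and each has a distal and a proximal promoter. They had 10 peaks between them, none of which held a B1 SINE, and 9 were inside the gene. The windows held 5.85 (Runx1) and 5.97 (Runx2) B1 SINEs per 100 kb, against 10.3 per 100 kb of genome. Runx1 (224.61 kb, chr16:92601466-92826074, minus strand) had 4 peaks in introns and 1 that lay 8751 bp downstream, inside the gene model Gm30224 (chr16:92591708-92592715, signal value 0.897, q = 0.0613). A pair 417 bp apart in intron 6 of 7, which spanned 4.9 kb (chr16:92615047-92619976), had the highest signal values of Runx1. These were 0.971 (q = 0.00147) and 1.16 (q = 0.00692). A peak in intron 4 (chr16:92678650-92680643, signal value 0.778, q = 0.0312) lay 16686 bp from the proximal start. Another in intron 2 (chr16:92798860-92800581, signal value 0.921, q = 0.0822) lay 25493 bp from the distal start. All 5 peaks of Runx1 were without an AP-1 motif. The window of Runx1 held 72 of these motifs, or 22.2 per 100 kb, the highest density among the list genes. Its peaks covered only 2.85% of that window, so few motifs could fall in them.

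Runx2 (318.81 kb, chr17:44495987-44814797, minus strand) had 5 peaks, all in introns. Of these, 3 lay in the last intron of the gene (intron 5 of 5 in the transcript used). From the end of the gene inwards, the first (chr17:44499593-44500639) had a signal value of 1.19 with a q of 0.00569. The second (chr17:44504725-44506161) had the highest signal value of the list, 1.56, above 98.0% of all peaks, and the lowest q, 0.000883. The third (chr17:44516778-44519410) had a signal value of 0.858 and a q of 0.0732. The remaining peaks, in intron 3 (chr17:44701656-44703366) and in intron 2 of 7 of a longer transcript (chr17:44766771-44775112), had low signal values of 0.587 (q = 0.0695) and 0.479 (q = 0.0516). The last of these, with 8342 bp and 14 fragments, was the longest of the list and held 5 AP-1 motifs. The other 4 held 0, 1, 2 and 1 in the order given.

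Tead1 encodes a TEA-domain factor, which recruits the coactivators YAP and TAZ to DNA. It had the most peaks of the list, 9, with 3 upstream, 5 inside and 1 downstream of the gene (227.43 kb, chr7:112679356-112906784). Around its start, 4 peaks spanned 26.2 kb (chr7:112661287-112687490). Going towards the gene, the 3 upstream peaks ended 13888, 4319 and 2145 bp before it, with signal values of 0.787 (q = 0.0215), 0.880 (q = 0.0287) and 1.24 (q = 0.00545). The fourth, in intron 1 of 13 (chr7:112685538-112687490), had 0.973 (q = 0.0317). These were the 4 Tead1 peaks with q under 0.05. The first and second held 1 AP-1 motif each, and the second and the third held 2 B1 SINEs each, among them the element with the highest identity of the list (95.7%).

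Farther into Tead1, 3 of 4 peaks had low signal values, and these 3 were made of 2, 3 and 5 fragments. The peak with the higher value was a single fragment. Whether the signal value of a peak goes with its number of fragments was not tested. A peak in intron 1 (chr7:112709137-112711039) had a signal value of 0.487 (q = 0.0539), and 3 in intron 2 had 0.929 (q = 0.0604), 0.528 (q = 0.0938) and 0.307 (q = 0.0913). The last of these (chr7:112821320-112825761) had the lowest signal value of the list. Of these 4, all but the peak at 0.929 held 1 AP-1 motif. The downstream peak (chr7:112917406-112920148), 10622 bp behind the gene, had a signal value of 0.693 (q = 0.0644) and held neither.

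The 50 kb limit left out few peaks. The peaks just inside it were the last Snai1 peak (45554 bp), the Twist1 peak (43480 bp) and the upstream Twist2 peak (40262 bp). Just outside lay a peak 60356 bp from Zeb2 with a signal value of 0.397 and one 63074 bp from Tead1 with 0.771, and 9 peaks lay between 50 and 100 kb from a gene of the list.

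The list was set beside 24 related genes, which are paralogs, partner proteins and inhibitors of the same families and other mesenchymal transcription factors. Of these, 19 had a peak in the gene or within 50 kb, against 49.7% of all protein-coding genes. Inside the gene 12 had one, against 17.1% of all protein-coding genes. These counts were not split by gene length. The 24 genes had 71 peaks in all. Their windows held 1.89 peaks per 100 kb, a value above the 1.58 of the list. The densest of them were Wwtr1 and Vgll4, whose proteins bind TEAD1. Wwtr1, which encodes TAZ, had 13 peaks (5.90 per 100 kb, more than 99.6% of the long genes), 11 of them inside the gene, with signal values of 0.414 to 1.14. Vgll4, which encodes a competitor of YAP for TEAD, had 12 peaks (5.75 per 100 kb), 9 of them inside, with 0.529 to 1.79. Yap1 had 4 peaks with 0.748 to 1.92, 1 of them inside, and Vgll3 had 1 with 0.861, inside the gene.

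Among partners of TWIST proteins, Tcf12 had 9 peaks, 7 inside, with signal values of 0.628 to 1.72, and Tcf4 had 8, 6 inside, with 0.700 to 1.30, while Tcf3 had 1, which lay 38978 bp away, with 1.02. The inhibitors of this family, Id1 and Id3, had 4 and 5 peaks near them and none inside, and Id2 had 1 inside with 0.610. Ctbp2, a corepressor partner of ZEB proteins, had 3 peaks with 0.648 to 1.12, 1 of them inside, and Osr1 had 1 inside with 1.69. Cbfb, the partner of RUNX proteins, had none within 50 kb. Among paralogs, Prrx2 had 2 peaks inside (0.908 and 0.918), Tead3 and Tead4 had 1 inside each (0.579 and 0.931), the nearest peak was 1112 bp from Snai3 and 17020 bp from Tead2, and Runx3 had none within 50 kb (nearest 62386 bp). Ctbp1, Foxc1 and Tcf21 also had none. In the family comparison, Prrx2 thus had more peaks in the gene than Prrx1, while Runx3 and Tead2 to Tead4 had fewer than Runx1, Runx2 and Tead1, which are longer genes.

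**Figure D4:**
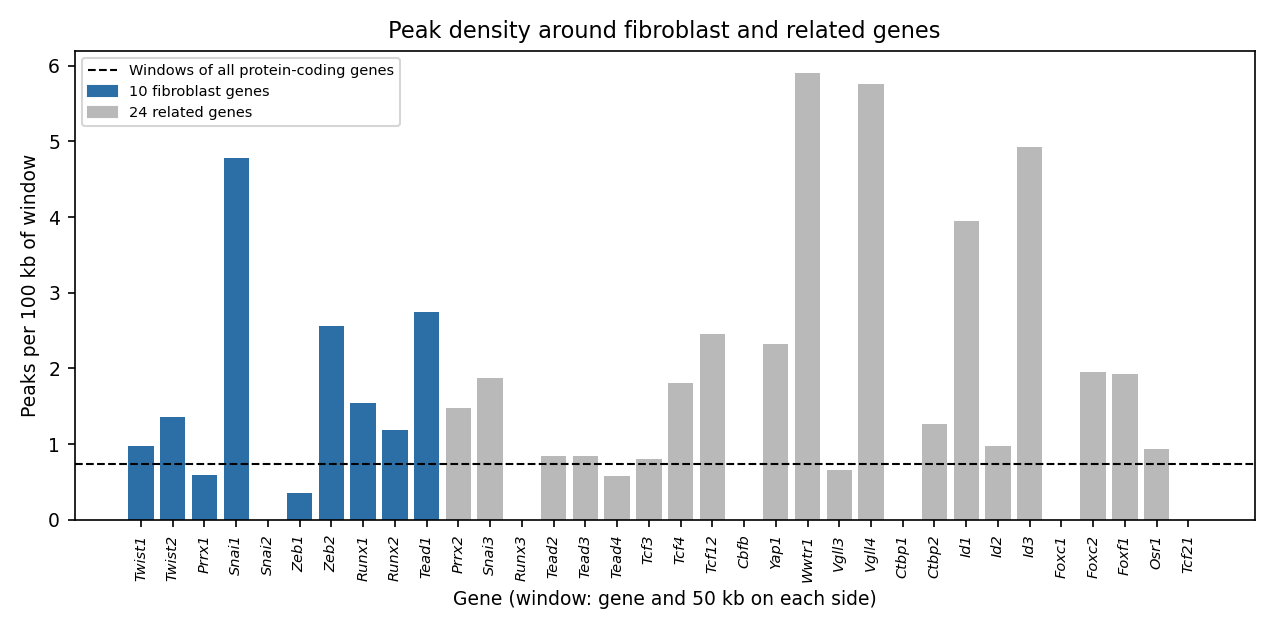
Peaks per 100 kb of window (y axis, from 0) for the 10 genes (blue) and the 24 related genes (grey), with the dashed line at the 0.739 of all protein-coding gene windows; no error bars are drawn because the samples were pooled. Snai1 is the highest blue bar at 4.78, and Wwtr1 (5.90) and Vgll4 (5.75) are the highest grey ones.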

How the data were processed

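DamID-seq was done on MEFs with Dam-ZFP266 (5 samples) and Dam alone (5 samples). Per the labels and methods, the authors trimmed reads with Cutadapt, aligned them to GRCm38 with BWA, removed mitochondrial and blacklisted reads, counted reads per DpnII fragment and called peaks over all samples with Daim. Tool versions are not given in the sources used here. The deposited list holds for each peak a score (limit 1000), a signal value, whose scale is not stated, and a −log10 q-value, as the authors' caller gave them (its −log10 p-value was not used). The methods name a false discovery rate under 0.05 and a log2 fold change above 1 as an example of the limits for significant binding, but the deposited list is looser: its q-values reach 0.1, and 7934 of the 15119 peaks had q under 0.05. It was used as deposited. The signal track was not used here. Samples are pooled, so the depth per sample is unknown and no test was made.

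Peak starts were raised by 1 to count from 1. Genes were the extents of curated RefSeq transcripts of GRCm38.p6 (45756 transcripts). B1 SINEs were blastn 2.17.0 matches (e-value limit 10) of at least 80 bp and 70% identity to a 145 bp consensus read from a figure of the study. AP-1 motifs were exact matches to TGACTCA or TGAGTCA. Introns are numbered in the longest curated transcript that spans the peak. Computation used Python 3.11.15, pandas 2.3.3, numpy 2.4.6, scipy 1.17.1, pysam 0.24.0 and matplotlib 3.10.9. The peak counting, the motif search and the B1 search were tested on simulated regions. The planted B1 SINEs were close to the consensus, so the recovery of diverged elements was not tested.

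The 10 genes and the 24 related genes were chosen with earlier results of these data known. All 10 genes are named, related genes are named with values for peaks in the gene, and other genes where they hold a peak of the list. The AP-1 motif shown for a gene comes from its peak of highest signal value inside the gene, and the B1 SINEs shown are among the 4 of highest identity. 2 sequences that this rule picks are not reported here. Hdac9, Ube2v1, Gtdc1 and related genes without a peak inside, other than paralogs, were named after their values were seen. Alternatives changed the window, the peak threshold, the overlap, the annotation and the definitions of motif and element.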

Additional observations from a re-analysis of the deposited data

How the results depend on the processing

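With q under 0.05 the list kept 16 peaks and 33.8% of all protein-coding genes had one, and with q under 0.01 there were 5 peaks at 3 genes, against 11.7% of all genes. With a signal value above 1 there were 8 peaks and 26.5% of all genes. The gene alone gave 17 peaks (17.1% of all genes), a window of 10 kb 22 peaks (27.2%), and a window of 100 kb 65.4% of all genes. Starts alone gave 17 peaks (43.4%). The AP-1 share was 11.4% in the central 500 bp of the peak, where it was 15.7% for all peaks. Apart from q under 0.01, the number of list genes with a peak was 6 to 9 in all settings run. The B1 share was 28.6% for elements of at least 100 bp at 85% identity, against 23.5% of all peaks. With at least 80 bases of the element in the peak it was 25.7% (all peaks 29.7%). With q under 0.05 it was 37.5% (all peaks 35.9%). The AP-1 share was 48.6% with the longer motif added (all peaks 45.0%) and 43.8% with q under 0.05 (all peaks 46.5%). Of the settings chosen after seeing the data, counting only peaks whose nearest protein-coding gene is on the list gave 32 peaks at 8 genes. Also chosen then, leaving out Snai1 gave a B1 share of 26.7% and an AP-1 share of 50%, and leaving out Runx1 and Runx2 gave 48.0% for both. No sample could be left out and no paired analysis was possible because the deposited list pools the samples and no test was made. Unknown depth means that a gene without a peak, such as Snai2, cannot be called unbound.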
